A study of Mus musculus with 18 samples.

Results

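Wild-type hippocampus was compared with wild-type cerebellum by small-RNA sequencing, which reads out the mature microRNAs (miRNAs) of a tissue. The comparison uses 6 of the 18 libraries of the series, all 3 of wild-type (WT) hippocampus and all 3 of WT cerebellum, chosen by their labels and joined on the miRNA name. All 6 came from male C57BL/6J mice aged 1 month, and none carries a targeted allele. The same contrast was read in 6 further libraries, 3 per tissue, from mice of the same strain, sex and age that lack the long noncoding RNA Cyrano (CyrKO). The remaining 6 libraries are cerebellum of other mutants and were not used. The series describes 3 biological replicates per genotype and tissue, but the labels do not say whether a hippocampus and a cerebellum with the same number come from 1 mouse.

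The tables list 1841 mature miRNAs, of which 1362 had at least 1 read in the 6 WT libraries and 479 had none. Of these, 709 were abundant enough to be tested. The libraries held 10047721 to 12209429 miRNA reads in cerebellum and 8591172 to 9760288 in hippocampus, with RNA integrity numbers of 8.9 to 9.1. The markers given for the comparison, miR-137-3p for hippocampus and miR-206-3p for cerebellum, separated the 6 libraries by their tissue labels. Both were chosen with this contrast known, so they are no independent check of the labels. Levels are given as scaled CPM, the reads of a miRNA per 1000000 reads of the library after correction of the library size by the trimmed mean of M values (TMM), in order of replicates 1, 2 and 3. Changes are log2 ratios of hippocampus over cerebellum with their standard error (SE) and the adjusted p of edgeR's quasi-likelihood test, and n is 3 libraries per tissue throughout.

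A miRNA is a short RNA that guides Argonaute proteins to messenger RNAs, which it recognises mainly through its seed, bases 2 to 8 from the 5′ end. Its precursor is a hairpin from which 2 strands can be cut, named 5p and 3p for the arm they come from; one of them, the guide, usually accumulates and the other, the passenger, is mostly degraded. miRNAs with the same seed are held to regulate overlapping sets of targets, and hairpins that lie close together are often cut from 1 transcript. In brain, miR-124 and miR-9 are the best known neuronal miRNAs, and the cerebellum, made up mostly of granule neurons, is a hindbrain derivative, whereas the hippocampus belongs to the forebrain.

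The sequences below, from RefSeq (GRCm38.p6), are those that the largest differences and the family comparisons turn on; capitals mark the seed. First come the markers and the miRNAs with the largest differences, then the neighbours of the miR-183 locus.
miR-206-3p: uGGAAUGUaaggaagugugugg
miR-217-5p: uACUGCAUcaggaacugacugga
miR-216a-5p: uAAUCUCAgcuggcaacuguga
miR-216b-5p: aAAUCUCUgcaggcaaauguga
miR-137-3p: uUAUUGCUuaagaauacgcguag
miR-551b-3p: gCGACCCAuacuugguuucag
miR-344d-3p: gAUAUAACcacugccagacuga
miR-96-5p: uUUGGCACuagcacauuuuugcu
miR-182-5p: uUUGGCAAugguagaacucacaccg
miR-183-5p: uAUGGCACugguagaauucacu

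The next set shows families in which the seed is shared while the tissue difference is either common to the members or differs among them. The miR-29 guides share AGCACCA, miR-200b-3p, miR-429-3p and miR-200c-3p share AAUACUG, the miR-15/16 guides share AGCAGCA, and miR-221-3p and miR-222-3p share GCUACAU. The miR-7 guides share GGAAGAC, and the passenger strands of the 3 miR-7 hairpins differ in sequence, so that reads of each can be told apart.
miR-29a-3p: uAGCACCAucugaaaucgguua
miR-29b-3p: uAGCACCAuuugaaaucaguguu
miR-29c-3p: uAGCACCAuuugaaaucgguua
miR-200b-3p: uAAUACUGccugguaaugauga
miR-429-3p: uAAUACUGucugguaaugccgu
miR-200c-3p: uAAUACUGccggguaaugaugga
miR-16-5p: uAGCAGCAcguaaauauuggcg
miR-195a-5p: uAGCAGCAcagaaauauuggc
miR-221-3p: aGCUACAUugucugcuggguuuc
miR-222-3p: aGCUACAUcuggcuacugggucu
miR-7a-5p: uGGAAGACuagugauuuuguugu
miR-7b-5p: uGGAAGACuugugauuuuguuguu
miR-7a-1-3p: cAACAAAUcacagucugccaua
miR-7a-2-3p: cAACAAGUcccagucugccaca
miR-7b-3p: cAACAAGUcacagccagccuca

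Most miRNAs differed between the tissues. Of the 709 tested, 505 passed an adjusted p of 0.05 (71.2%), of which 266 were higher in hippocampus (37.5% of those tested) and 239 were lower (33.7%). At least 2-fold differences were called for 160 higher (22.6%) and 130 lower (18.3%). The libraries of the tissues did not overlap for 277 miRNAs that were higher in hippocampus (39.1%) and 249 that were lower (35.1%). The 12 largest differences per direction named below were picked from called miRNAs without overlap. Their lack of overlap is therefore a condition of the choice and no further result. The median log2 change over all 709 was 0.02. This balance depends on the scaling: with library totals in place of TMM the median was 0.58 and the calls were 381 higher and 123 lower, so small differences have a direction only relative to the typical miRNA. Of the 290 differences of at least 2-fold, 273 kept their direction and their call under library totals.

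**Figure D1:**
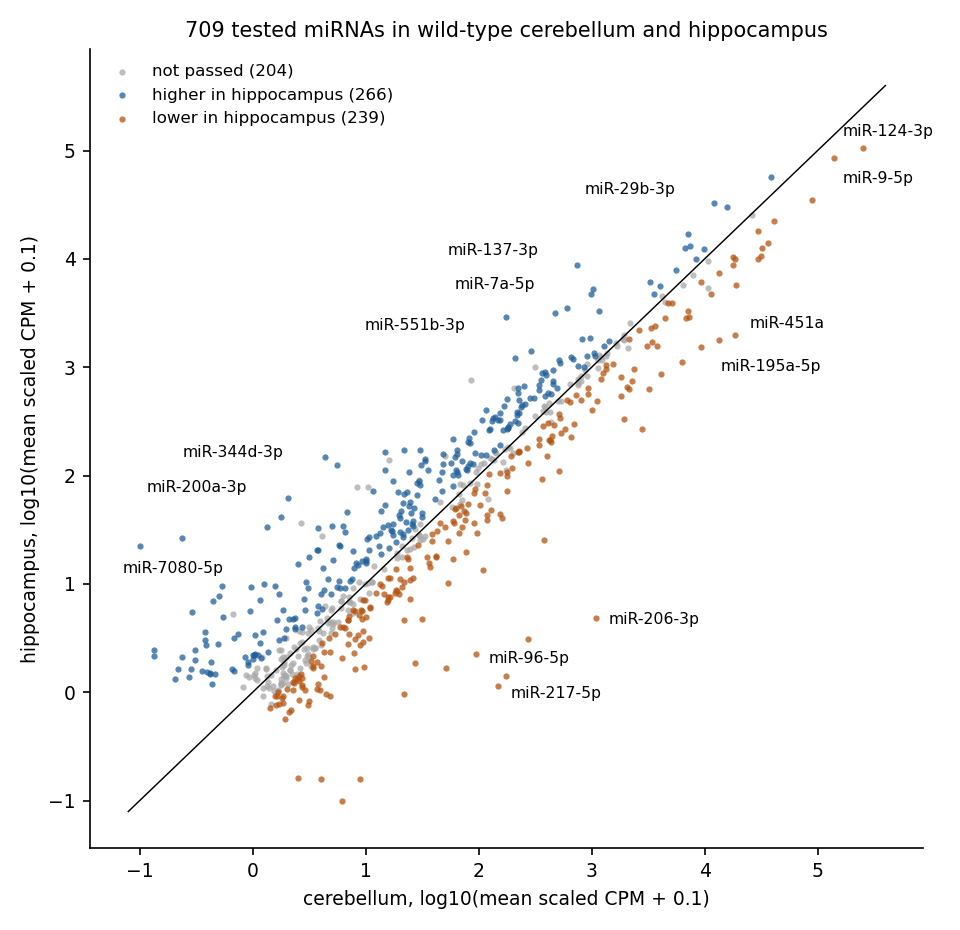
Mean scaled CPM of the 709 tested miRNAs in WT cerebellum (horizontal, log10 of the mean plus 0.1) and WT hippocampus (vertical, same scale), 3 libraries per tissue; the line marks equal levels. Blue points were higher and orange points lower in hippocampus at an adjusted p under 0.05, and miR-206-3p, miR-217-5p and miR-137-3p lie far from the line; of the 96 miRNAs above 1000 CPM, 10 were at least 2-fold higher and 27 at least 2-fold lower.

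The same few miRNAs dominated both tissues, with a steeper distribution in cerebellum. The 10 most abundant miRNAs took 59.4% ± 0.785 (SD) of the reads in cerebellum and 52.1% ± 0.647 in hippocampus, and 6 miRNAs were in the top 10 of both. miR-124-3p had rank 1 in both, with 21.0% ± 2.0 of the reads in cerebellum and 12.7% ± 1.7 in hippocampus. miR-124-3p is the neuronal miRNA that represses non-neuronal transcripts. Its level was 277079, 233398 and 253193 scaled CPM in cerebellum and 112081, 113170 and 89118 in hippocampus, with no overlap (log2 change −1.28, SE 0.12, adjusted p = 5.01e-07). miR-9-5p, a regulator of neural progenitors, had rank 2 in both tissues and was lower in hippocampus (−0.71, SE 0.10, adjusted p = 4.28e-05), though not under library totals (−0.15, adjusted p = 0.182). Also lower was miR-26a-5p (−1.35, SE 0.12, adjusted p = 3.59e-07), rank 3 in cerebellum and rank 4 in hippocampus. miR-125b-5p, rank 5 in cerebellum and rank 3 in hippocampus, went the other way at 38399 ± 1974 against 57440 ± 5739 scaled CPM (0.58, SE 0.10, adjusted p = 0.000177). Its relative miR-125a-5p, with the same seed, fell from 36276 ± 1896 in cerebellum to 13914 ± 1667 in hippocampus (−1.38, SE 0.11).

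The miR-29 guides were among the abundant miRNAs that were higher in hippocampus. miR-29b-3p was at 11706, 12400 and 11888 scaled CPM in cerebellum and at 31926, 34080 and 33070 in hippocampus, moving from rank 20 to rank 5. Every hippocampus library was above every cerebellum library, and the level was 2.75-fold higher (log2 change 1.46, SE 0.09, adjusted p = 1.2e-08). miR-29 is known to increase as neurons mature and to restrain apoptotic genes. miR-29a-3p was 1.91-fold higher (0.93, SE 0.09) and miR-29c-3p 1.74-fold higher (0.80, SE 0.10), so all 3 tested members were higher, beside 37.5% of all tested. miR-138-5p, a miRNA of neuronal dendrites, rose from rank 31 to rank 10 (1.23, SE 0.09, adjusted p = 1.04e-07).

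Among the miRNAs that were higher in cerebellum, miR-206-3p differed most of those above 100 CPM. Its level was 1016, 1194 and 1076 scaled CPM in cerebellum and 5.55, 3.7 and 4.99 in hippocampus. The tissues were 231-fold apart with no overlap (log2 change −7.85, SE 0.17, adjusted p = 2.17e-12), and CyrKO gave −8.14. miR-206 is best known from skeletal muscle, where it acts with miR-1 and miR-133. miR-1a-3p, which has the same seed, was at 131 ± 10.7 scaled CPM in cerebellum and 142 ± 22.1 in hippocampus, with overlapping libraries (0.12, SE 0.13, adjusted p = 0.418). miR-133a-3p and miR-133b-3p were not analysed here. At a depth too low to test, miR-133b-5p had 4 to 11 reads in the cerebellum libraries and none in hippocampus. The other strand of miR-206, miR-206-5p, had 1 to 7 reads against none. The miR-206 hairpin is on chromosome 1 (GRCm38.p6, 20679010 to 20679082, plus strand) in an exon of the long noncoding RNA Gm28653.

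The miR-216 and miR-217 hairpins lie near each other on the plus strand of chromosome 11, and their guides formed the next group. miR-217-5p was at 130, 178 and 139 scaled CPM in cerebellum and at 1.34, 1.26 and 0.535 in hippocampus (log2 change −7.14, SE 0.29, adjusted p = 1.87e-08). miR-216b-5p was at 154, 210 and 155 against 1.15, 1.51 and 1.25 (−7.04, SE 0.19, adjusted p = 8.74e-12). miR-216a-5p was at 233, 336 and 249 against 3.92, 2.94 and 2.14 (−6.50, SE 0.25, adjusted p = 1.57e-08). In each of the 3, every cerebellum library was above every hippocampus library, as their choice required, and cerebellum library 2 was the highest. Their passenger strands followed at low depth. miR-216b-3p had 47, 84 and 38 reads in cerebellum and none in hippocampus, which against a floor of 3 reads per library is at least 22.4-fold higher in cerebellum. miR-216 and miR-217 are otherwise known from pancreas. The hairpins span 28746191 to 28746276 for Mir216b, 28757012 to 28757083 for Mir216a and 28763728 to 28763835 for Mir217 (GRCm38.p6), the last 2 within an intron of the noncoding RNA Gm12082.

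The miR-183, miR-96 and miR-182 guides are cut from 1 cluster on the minus strand of chromosome 6. Best known from sensory neurons and photoreceptors, all 3 were lower in hippocampus, beside 33.7% of all tested. miR-96-5p was at 86.2, 117 and 80.2 scaled CPM in cerebellum and at 2.11, 2.44 and 1.87 in hippocampus (log2 change −5.46, SE 0.20, adjusted p = 1.03e-10). miR-182-5p changed by −5.04 (SE 0.24) and miR-183-5p by −4.64 (SE 0.22), and no library overlapped in either. miR-96-5p was the most abundant of them in cerebellum, ahead of miR-182-5p at 51.6 ± 9.83 and miR-183-5p at 21.8 ± 3.86 scaled CPM.

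miRNAs of the Hox gene clusters, whose expression marks hindbrain and spinal cord, were few in reads and higher in cerebellum. Of the 7 listed, 3 could be tested, and all 3 were lower in hippocampus, beside 33.7% of all tested. miR-10b-5p, from an intron shared by Hoxd3 and Hoxd4, was at 26.6, 25.1 and 30.3 scaled CPM in cerebellum and at 1.91, 2.35 and 0.981 in hippocampus (log2 change −3.95, SE 0.25, adjusted p = 1.95e-08). miR-10a-5p was at 8.76 ± 0.967 against 2.62 ± 0.432 (−1.73, SE 0.20). miR-615-3p had 36, 30 and 42 reads in cerebellum and 0, 1 and 1 in hippocampus. miR-196a-5p, below the filter, had 20, 8 and 12 reads against 0, 0 and 1.

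Several abundant guides were also several-fold higher in cerebellum. miR-195a-5p was at 13131, 13240 and 13455 scaled CPM in cerebellum and at 1709, 1684 and 1966 in hippocampus, a 7.43-fold difference (log2 change −2.89, SE 0.10, adjusted p = 6.12e-11). miR-497-5p was 6.02-fold higher in cerebellum at 9248 ± 459 scaled CPM (−2.59, SE 0.10), and miR-497-3p was higher too (−3.91, SE 0.16, adjusted p = 5.93e-10). miR-195 and miR-497 belong to the miR-15/16 family, which represses cyclins and other cell cycle genes. miR-194-5p was at 1821, 2048 and 1908 against 323, 325 and 353 scaled CPM (−2.53, SE 0.10). It can be cut from 2 hairpins, Mir194-1 on chromosome 1 and Mir194-2 on chromosome 19. miR-192-5p, from the cluster that holds Mir194-2, changed by −1.97 (SE 0.11). miR-484 was at 6306 ± 219 against 1114 ± 43.7 (−2.50, SE 0.09). miR-34a-5p, a target of p53, was at 3214 ± 189 against 625 ± 118 (−2.36, SE 0.14). None of these overlapped between tissues, which the choice of the 12 largest required for all but miR-192-5p.

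**Figure D2:**
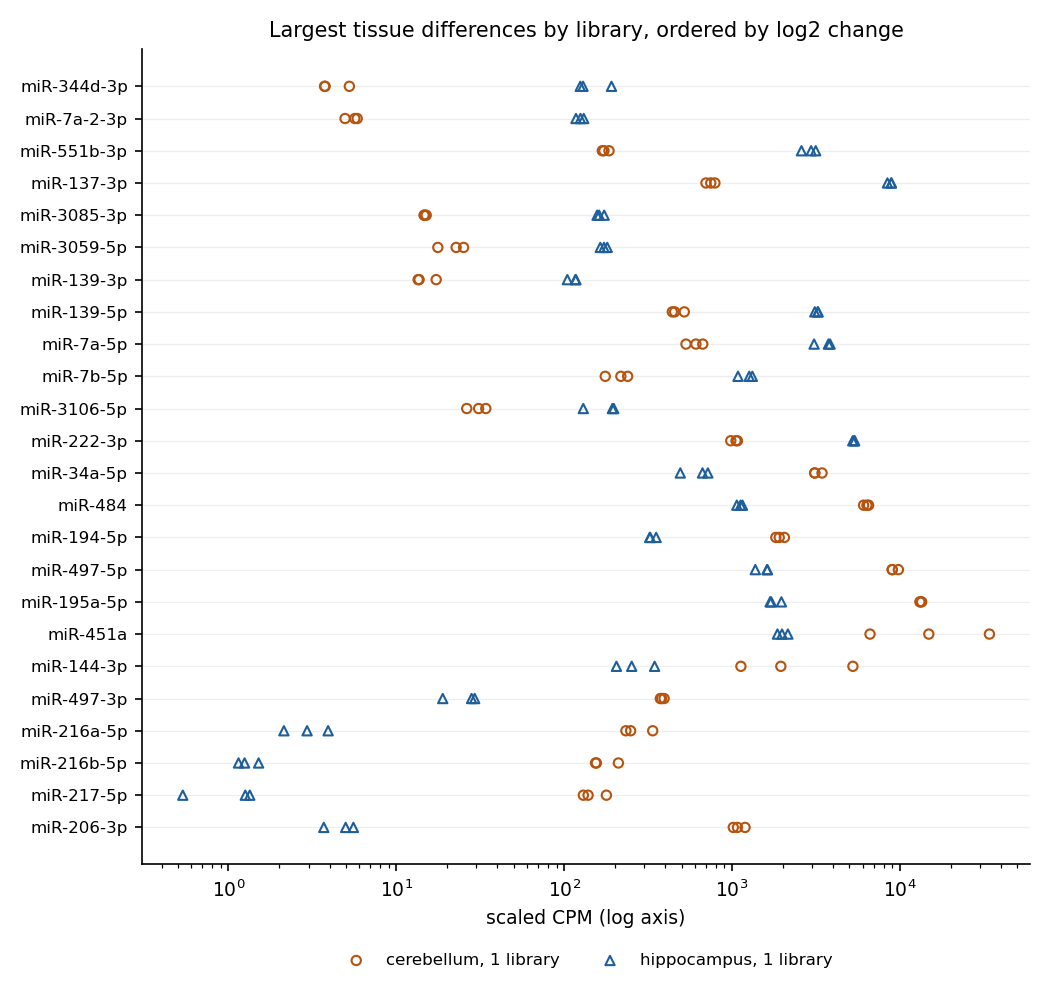
Scaled CPM (log axis) in each library of the 12 miRNAs with the largest log2 change in each direction among those that were called, did not overlap and averaged at least 100 CPM in 1 tissue; circles are the 3 cerebellum libraries and triangles the 3 hippocampus libraries. The replicates lie close together for most miRNAs, and the cerebellum libraries spread widely for miR-451a, from 6626 to 34075.

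Among the miRNAs that were higher in hippocampus, miR-137-3p was the most abundant of the 12 largest. Its level was 746, 790 and 699 scaled CPM in cerebellum and 8893, 8417 and 8855 in hippocampus, an 11.7-fold difference with no overlap (log2 change 3.55, SE 0.10, adjusted p = 8.74e-12). miR-137 regulates neuronal differentiation and synaptic genes, and its human locus is associated with schizophrenia. The passenger strand miR-137-5p rose from 3.72 ± 1.53 to 32.5 ± 3.27 scaled CPM (3.12, SE 0.26). The hairpin is on chromosome 3 (GRCm38.p6, 118433857 to 118433929, plus strand), in an exon of the noncoding transcript Gm26871.

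miR-551b-3p was at 172, 185 and 169 scaled CPM in cerebellum and at 2954, 3147 and 2588 in hippocampus, 16.5-fold higher (log2 change 4.05, SE 0.11, adjusted p = 8.74e-12). miR-139-5p, from an intron of the phosphodiesterase gene Pde2a, was at 440, 519 and 455 against 3252, 3233 and 3108 (2.76, SE 0.10), and miR-139-3p changed by 2.93 (SE 0.14). The neighbouring miR-221 and miR-222 of the X chromosome, which repress the cell cycle inhibitor p27, rose together. miR-222-3p was at 982, 1055 and 1075 against 5229, 5335 and 5369 scaled CPM (2.36, SE 0.09) and miR-221-3p at 998 ± 111 against 4731 ± 228 (2.25, SE 0.11, adjusted p = 1.17e-09). Less studied miRNAs completed the group: miR-3085-3p at 3.47 (SE 0.12), miR-3059-5p, from an intron of Mgat4c, at 2.98 (SE 0.14) and miR-3106-5p at 2.51 (SE 0.17). In all of these the hippocampus libraries lay above the cerebellum libraries, which the choice of the 12 largest required for all but miR-221-3p.

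The miR-344 family, a set of rodent hairpins on chromosome 7, did not move as a unit. All 13 of its tested strands passed, 10 of them higher and 3 lower in hippocampus, beside 37.5% and 33.7% of all tested. miR-344d-3p was at 3.77, 3.74 and 5.25 scaled CPM in cerebellum and at 129, 125 and 191 in hippocampus, 34.9-fold higher (log2 change 5.13, SE 0.22, adjusted p = 4.01e-09). miR-344c-3p rose from 24.3 ± 2.91 to 107 ± 7.36 (2.14, SE 0.13). The most abundant member went the other way: miR-344-3p was at 904, 1126 and 1010 in cerebellum and at 405, 393 and 416 in hippocampus (−1.32, SE 0.10, adjusted p = 1.3e-07). miR-344-5p and miR-344g-5p were the other two that were lower, at −1.80 (SE 0.34) and −1.09 (SE 0.29). Some of these hairpins are near copies, so reads may be split or shared between them in ways the counts do not show. The forebrain and hippocampus list, drawn up with results of these data known, held 14 tested strands, of which 12 were higher and 2 lower, namely miR-344-3p and miR-195a-5p.

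The passenger strands of miR-7 differed by hairpin, while both guides were higher in hippocampus by like amounts. The guide miR-7a-5p can be cut from 2 hairpins, Mir7-1, in an intron of Hnrnpk on chromosome 13, and Mir7-2, on chromosome 7, and miR-7b-5p from Mir7b on chromosome 17. miR-7a-5p was at 531, 669 and 608 scaled CPM in cerebellum and at 3831, 3077 and 3746 in hippocampus (log2 change 2.56, SE 0.12, adjusted p = 1.17e-09). miR-7b-5p was at 176, 239 and 217 against 1320, 1084 and 1264 (2.54, SE 0.13). The passenger of Mir7-2, miR-7a-2-3p, was at 4.95, 5.66 and 5.85 in cerebellum and at 125, 117 and 131 in hippocampus, 22.6-fold higher (4.50, SE 0.14, adjusted p = 1.98e-11). The passenger of Mir7-1, miR-7a-1-3p, went the other way, from 444 ± 15.7 to 230 ± 27.4 (−0.95, SE 0.11, adjusted p = 5.13e-06). miR-7b-3p overlapped at 20.9 ± 9.22 against 17.8 ± 1.33 (−0.23, SE 0.28, adjusted p = 0.476). In cerebellum the Mir7-1 passenger was far above that of Mir7-2, at 444 against 5.49, and in hippocampus they stood at 230 and 124. The tissue difference of both guides was larger in WT than in CyrKO, as given below.

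The miR-200 family, best known from epithelia, where it holds down the factors Zeb1 and Zeb2, split by locus. miR-200a-3p, miR-200b-3p and miR-429-3p come from 1 cluster on chromosome 4, within the gene Ttll10. miR-200a-3p was at 1.72, 2.42 and 1.79 scaled CPM in cerebellum and at 54.7, 77.2 and 54.4 in hippocampus (log2 change 4.96, SE 0.21, adjusted p = 4.76e-10). miR-200b-3p changed by 4.62 (SE 0.21) and miR-429-3p by 4.71 (SE 0.23). The other cluster, on chromosome 6, did not: miR-200c-3p, with the seed of miR-200b-3p, was at 3.98, 2.63 and 5.85 against 1.34, 1.26 and 1.25 (−1.67, SE 0.31, adjusted p = 0.000358), and miR-141-3p was at −0.93 (SE 0.42, adjusted p = 0.0712). Without cerebellum library 2, miR-141-3p was called lower at −1.31 (adjusted p = 0.00242). In CyrKO miR-200a-3p was also higher in hippocampus (4.79). The choroid plexus and ciliated cell list, described below, summed to 12732, 10762 and 11225 scaled CPM in cerebellum and to 6748, 15100 and 3088 in hippocampus. Most of this sum is miR-204-5p, the most abundant member of the list. The part of these cells in the miR-200 difference was not tested.

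miR-7080, singled out after its values were seen, was read almost only in hippocampus. miR-7080-5p had no read in any cerebellum library and 221, 251 and 277 reads in hippocampus, which against a floor of 3 reads per library is at least 68.0-fold higher. The other strand, miR-7080-3p, was at 0.108, 0.303 and 0 scaled CPM in cerebellum and at 28.3, 25.0 and 25.9 in hippocampus. The hairpin overlaps an exon of the protein-coding gene Cpne7 on chromosome 8 (GRCm38.p6, 123130106 to 123130172, plus strand). In CyrKO, miR-7080-5p had 242 to 457 reads in hippocampus libraries and 0 to 2 in cerebellum libraries.

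Several large families of abundant guides were mostly lower in hippocampus, with 33.7% of all tested miRNAs as the share to read their counts against. Of 7 let-7 guides, the miRNAs that mark differentiated cells, 6 were lower and 0 higher, with a median log2 change of −0.86, whereas library totals gave 4 lower and 1 higher. let-7g-5p was at 32263 ± 1585 scaled CPM in cerebellum and 12514 ± 643 in hippocampus (−1.37, SE 0.09, adjusted p = 2.75e-08). let-7b-5p changed by −0.86 (SE 0.11). let-7a-5p and let-7c-5p were not analysed here. All 7 tested miR-181 strands were lower, with a median of −0.74, and 3 of them under library totals. miR-181a-5p, the largest, was at 29250, 34829 and 31080 against 10629, 10797 and 10711 scaled CPM (−1.57, SE 0.10). All 3 tested miR-30 guides were lower under both scalings, miR-30d-5p most at 19001 ± 953 against 5720 ± 520 (−1.73, SE 0.10).

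Of the 5 tested members of the miR-15/16 list 4 were lower and 1 higher, beside 33.7% and 37.5% of all tested. The list held miR-497 under another name, so miR-497-5p, also lower, is not in that count. miR-16-5p was at 26613, 31211 and 31287 scaled CPM in cerebellum and at 9456, 9763 and 10547 in hippocampus (log2 change −1.58, SE 0.10), and miR-15b-5p changed by −1.75 (SE 0.13). The exception was miR-322-5p of the X chromosome, which shares the seed and was 2.11-fold higher in hippocampus (1.08, SE 0.15, adjusted p = 3.2e-05). In CyrKO 4 members of the list were called lower and 0 higher, so the call of miR-322-5p was not repeated there. miR-16 is also abundant in red blood cells. Their defining miRNA, miR-451a, was at 14840, 6626 and 34075 scaled CPM in cerebellum and at 1862, 2149 and 1983 in hippocampus, and its part in the miR-15/16 difference was not tested. Among the cerebellum libraries, miR-16-5p was lowest in replicate 1, whose miR-451a level was intermediate. So few libraries cannot show whether these levels go together, and no conclusion is drawn from their order.

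Neuronal miRNAs were called in both directions, as were all tested (37.5% higher and 33.7% lower). Of 14 tested members of the pan-neuronal list, 7 were higher in hippocampus and 5 lower (9 and 4 under library totals), with a median log2 change of 0.09 beside 0.02 for all tested. miR-218-5p, known from motor and hippocampal neurons, was at 6669 ± 896 scaled CPM in cerebellum and 12538 ± 572 in hippocampus (0.91, SE 0.11). miR-330-3p was at 1.49 (SE 0.12) and miR-383-5p at 1.42 (SE 0.11). On the other side, miR-129-5p, which targets potassium channel transcripts, was at 1876, 2398 and 1896 against 708, 701 and 557 (−1.65, SE 0.13, adjusted p = 1.47e-07). miR-128-3p, among the 10 most abundant in hippocampus, was at 26162 ± 2943 against 25297 ± 1143 with overlapping libraries (−0.05, SE 0.10, adjusted p = 0.677).

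The activity-regulated list, miRNAs known to be induced when neurons fire, was higher in all 6 tested members, beside 37.5% of all tested, with a median log2 change of 0.71 beside 0.02. The 6 strands come from 4 hairpins, with both strands of miR-132 and miR-212, and miR-29a-3p is also counted with miR-29. miR-212-3p was at 217, 213 and 243 scaled CPM in cerebellum and at 542, 535 and 644 in hippocampus (1.35, SE 0.11, adjusted p = 1.9e-07). miR-132-3p, cut from the same transcript and the more abundant, was at 3312, 3637 and 3855 against 4525, 4539 and 5174 (0.40, SE 0.10, adjusted p = 0.00259). No library overlapped in either, and the larger change was in miR-212.

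**Figure D3:**
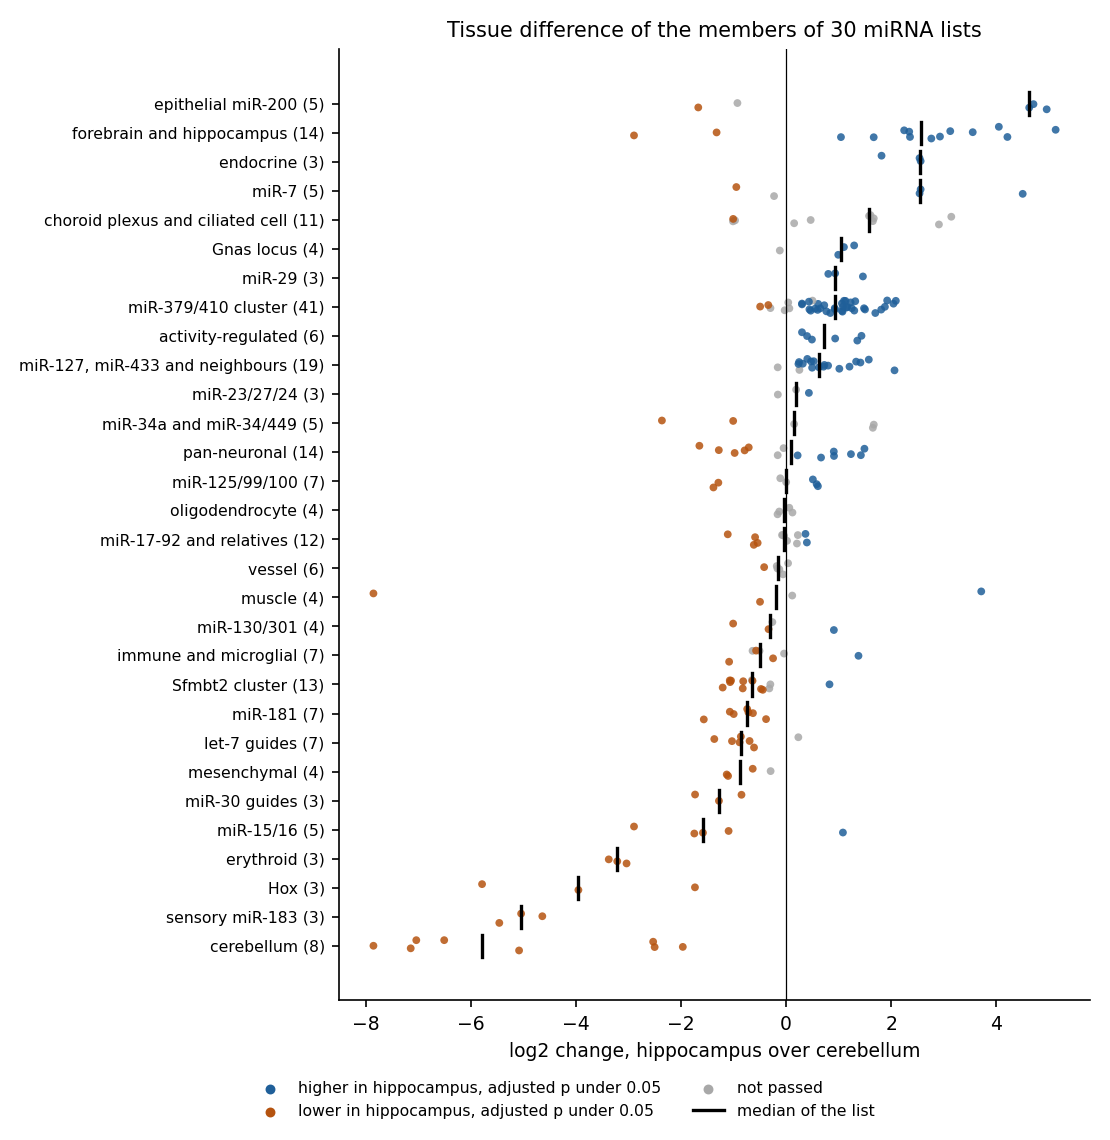
Log2 change, hippocampus over cerebellum, of each tested member of 30 miRNA lists, with the number of tested members in brackets and the list's median as a black bar. Blue and orange members passed an adjusted p of 0.05 in either direction and grey members did not; the cerebellum, miR-183 and Hox lists lie to the left and the miR-379/410 and miR-127 clusters mostly to the right, while the oligodendrocyte and vessel lists sit near 0.

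The imprinted clusters of chromosome 12, expressed from the maternal chromosome and abundant in brain, were mostly higher in hippocampus. In the miR-379/410 cluster 34 of 41 tested strands were higher and 2 lower, with a median log2 change of 0.93, beside 37.5% higher and a median of 0.02 over all tested. Under library totals 38 were higher and 0 lower. miR-376a-3p was at 1211, 1165 and 1140 scaled CPM in cerebellum and at 3670, 3311 and 2836 in hippocampus (1.48, SE 0.11, adjusted p = 5.8e-08). miR-496a-3p was at 1.88 (SE 0.11) and miR-409-3p, the largest of the list, at 2.09 (SE 0.12). The 2 that were lower were miR-381-3p (−0.49, SE 0.10) and miR-485-3p (−0.34, SE 0.12), and neither was lower under library totals. The call of miR-485-3p was lost without cerebellum library 1 or hippocampus library 1 or 2 (adjusted p 0.0591 to 0.113).

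In the neighbouring group around miR-127 and miR-433, 17 of 19 were higher and 0 lower, with a median of 0.62. miR-433-3p was at 685 ± 37.1 against 1191 ± 154 scaled CPM (0.80, SE 0.11), and the most abundant, miR-127-3p, at 8442 ± 799 against 10012 ± 734 with overlapping libraries (0.25, SE 0.10, adjusted p = 0.0411). That call was lost without cerebellum library 1 or 3 or hippocampus library 1 (adjusted p 0.0837 to 0.151). miR-493-5p of the same locus, named after its values were seen, was 6.83-fold higher in hippocampus at 46.3 ± 3.07 scaled CPM (2.77, SE 0.18). At the imprinted Gnas locus 3 of 4 strands were higher, miR-298-5p by 1.29 (SE 0.11). The rodent cluster in Sfmbt2 went the other way with 9 of 13 lower and 1 higher (median −0.65), beside 33.7% lower and 37.5% higher of all tested, of which 4 lower and 1 higher were called under library totals. miR-467a-5p, its most abundant member, was at 340 ± 38.8 against 193 ± 23.7 scaled CPM (−0.82, SE 0.12).

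The dissected tissues also hold glia, vessels, blood and choroid plexus, and fewer cells of a type cannot be told apart from less RNA per cell in bulk tissue. Markers of oligodendrocytes and vessels mostly did not pass. None of the 4 tested oligodendrocyte miRNAs passed, beside 71.2% of all tested called in either direction, although 3 were called higher under library totals. miR-338-3p was at 6394 ± 1009 scaled CPM in cerebellum and 5711 ± 876 in hippocampus (log2 change −0.16, SE 0.14, adjusted p = 0.302). The change of miR-219a-5p was poorly determined (0.12, SE 0.44, adjusted p = 0.82). Of 6 vessel miRNAs 1 was lower and 0 higher (under library totals 0 lower and 5 higher), beside 33.7% and 37.5% of all tested. The endothelial miR-126a-3p was at 4484 ± 429 against 4000 ± 175 (−0.16, SE 0.10, adjusted p = 0.14). Of 7 immune miRNAs 3 were lower and 1 higher, against 1 lower and 3 higher under library totals, and the lower count is near the 33.7% of all tested. miR-146a-5p, an inhibitor of innate immune signalling, was at 168 ± 6.35 against 435 ± 29.8 (1.38, SE 0.10), and miR-155-5p, which is induced in activated macrophages, at 21.9 ± 1.92 against 10.3 ± 1.4 (−1.08, SE 0.16). Of 4 mesenchymal miRNAs 3 were lower (0 under library totals), beside 33.7% of all tested. The list summed to 109 to 132 scaled CPM in cerebellum and 59.8 to 99.8 in hippocampus.

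All 3 tested erythroid miRNAs were lower in hippocampus, beside 33.7% of all tested, and their spread in cerebellum was wide. The 3 strands come from 2 neighbouring hairpins on chromosome 11. The list summed to 16867, 7802 and 39519 scaled CPM in cerebellum and to 2125, 2508 and 2203 in hippocampus. miR-451a was 9.27-fold higher in cerebellum (log2 change −3.21, SE 0.71, adjusted p = 0.0155), and miR-144-3p, from the same transcript, changed by −3.37 (SE 0.74, adjusted p = 0.0151). The call of miR-451a was lost without any 1 of the hippocampus libraries, with an adjusted p of 0.0582 to 0.0692, and kept without any 1 of the cerebellum libraries; without cerebellum library 3 the change was −2.43. The call of miR-144-3p was lost without hippocampus library 1 or 3 (adjusted p 0.0666 and 0.0618). CyrKO gave −3.46 for each of the pair.

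The choroid plexus and ciliated cell list varied widely in sum between the hippocampus libraries, and less between those of cerebellum. It summed to 12732, 10762 and 11225 scaled CPM in cerebellum and to 6748, 15100 and 3088 in hippocampus. Of its 11 members 0 were higher and 1 lower, beside 37.5% and 33.7% of all tested, with a median log2 change of 1.58. Library totals gave 3 higher and 0 lower. In CyrKO 8 were called higher and 1 lower, beside 39.6% and 33.8% of all tested there. miR-204-5p, its most abundant member, was at 10676 ± 615 in cerebellum and at 4379, 9609 and 2345 in hippocampus (−0.97, SE 0.58, adjusted p = 0.198). It makes up most of the sum, which therefore says little about the less abundant members. Without hippocampus library 2 it was called lower at −1.59 (adjusted p = 0.0105). miR-1298-5p, from an intron of the serotonin receptor gene Htr2c, which choroid plexus expresses strongly, was at 249, 4.55 and 3.22 against 571, 1675 and 22.4 (3.14, SE 2.45, adjusted p = 0.304). Without cerebellum library 1 its change was 7.59 (adjusted p = 0.0888). miR-448-3p and, named after its values were seen, miR-1912-5p lie in introns of the same gene and had the same order of libraries, with hippocampus 2 and 1 and cerebellum 1 above the rest. miR-34b-5p and miR-34c-5p of ciliated cells were also highest in hippocampus library 2, at 1195 and 1831 scaled CPM, and neither passed, although miR-34c-5p did without hippocampus library 3 (2.10, adjusted p = 0.0499).

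**Figure D4:**
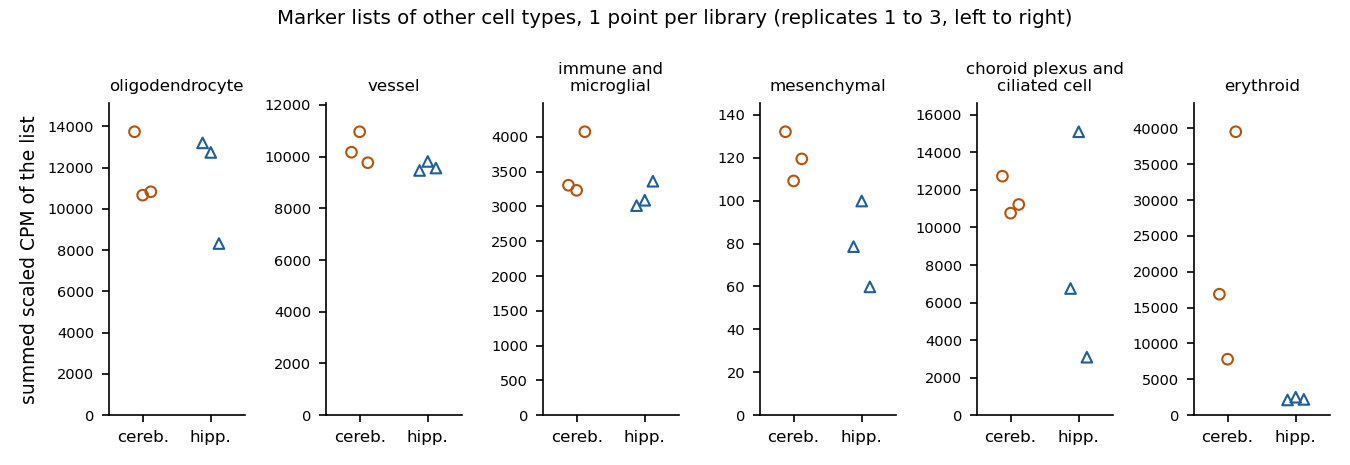
Summed scaled CPM of the marker lists of 6 other cell types in each WT library, cerebellum as circles and hippocampus as triangles, each panel on its own linear axis from 0. The erythroid sum is 7802 to 39519 in cerebellum and 2125 to 2508 in hippocampus, and the choroid plexus sum is 15100 in hippocampus library 2 and 3088 in library 3.

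Members of 1 family or cluster were compared with each other through their shared seed or position. Of 16 seed families with at least 3 tested members, 3 had calls only toward higher levels in hippocampus, 5 only toward lower and 8 in both directions. Over all tested miRNAs 37.5% were called higher and 33.7% lower. The one-sided families of miR-148a-3p and miR-107-5p each had 1 call among 3 members, and a single call cannot be split. Among the one-sided families were miR-29 and miR-181, in which all tested members were called. Among the split ones were miR-125, the family of miR-200b-3p and miR-15/16, the last through miR-322-5p alone. Of 35 groups of at least 2 hairpins on 1 strand with gaps of at most 10000 bases, 27 had calls in 1 direction only, 4 in both and 4 had none. Some of the 27, such as miR-449a with miR-449c, rest on 1 call, and both strands of a hairpin were counted. The 2 groupings differ in how many tested strands a group holds, and their counts were not compared. The miR-17-92 cluster was one of the split groups, with miR-17-5p at 0.37 (SE 0.12) and miR-19a-3p at −1.11 (SE 0.12) from 1 transcript. The call of miR-17-5p was lost without any 1 of the hippocampus libraries (adjusted p 0.0501 to 0.0863).

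The 5p and 3p strands of 1 hairpin were compared next. Among 109 hairpins with both strands above 10 CPM in both tissues, both strands were called in 73, in 70 of them in the same direction and in 3 in opposite directions. The log2 ratio of 5p to 3p reads did not overlap between tissues in 59 hairpins (54.1%). With 3 libraries per tissue the exact two-sided permutation test cannot go below p = 0.1, and the smallest adjusted p was 0.185. The largest difference was in miR-7b, whose log2 ratio was 3.41 ± 0.65 in cerebellum and 6.10 ± 0.24 in hippocampus. It was followed by miR-497 (4.59 ± 0.09 against 5.94 ± 0.21), miR-335 (5.52 ± 0.03 against 4.19 ± 0.06), miR-296 (4.96 ± 0.14 against 3.74 ± 0.15) and miR-543 (−4.32 ± 0.24 against −3.15 ± 0.21). For miR-335, from an intron of the imprinted gene Mest, the 3p strand rose from 28.3 ± 2.73 to 85.3 ± 6.92 scaled CPM while the 5p strand went from 1298 ± 135 to 1557 ± 109. In CyrKO the difference of the log2 ratio between tissues was 1.40 for miR-497, −1.37 for miR-335, −1.47 for miR-296 and 1.11 for miR-543, and −0.05 for miR-7b.

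The tissue contrast was read again in the 6 CyrKO libraries, which share no library with the WT contrast. Of 730 tested miRNAs 536 were called (73.4%), 289 higher (39.6%) and 247 lower (33.8%) in hippocampus. Of the WT calls 503 were tested in CyrKO, and 456 were called there in the same direction, 90.7% of those WT calls and 86.5% of the 527 CyrKO calls tested in WT. Of the 288 WT calls of at least 2-fold, 272 were called in the same direction in CyrKO, with a median absolute difference of 0.17 between the log2 changes. miR-137-3p was at 3.45, miR-551b-3p at 4.18, miR-344d-3p at 4.95 and miR-217-5p at −7.84.

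The difference of the tissue contrast between genotypes, tested as an interaction over 12 libraries, passed for 3 of 746 miRNAs (0.402%). miR-7a-5p and miR-7b-5p, higher in hippocampus at 2.56 and 2.54 in WT, were at −0.24 and −0.25 in CyrKO. Both were called lower in hippocampus there (adjusted p = 0.0188 and 0.0126). Changes this small have a direction only relative to the typical miRNA: library totals gave 124 lower calls in CyrKO instead of 247. Cyrano is known to carry a site that directs the degradation of miR-7, and the part of that site in the tissue difference was not tested. The passenger strands had like values in both genotypes, with miR-7a-2-3p at 4.50 and 4.39 and miR-7a-1-3p at −0.95 and −1.22. The other one was miR-411-3p of the miR-379/410 cluster.

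**Figure D5:**
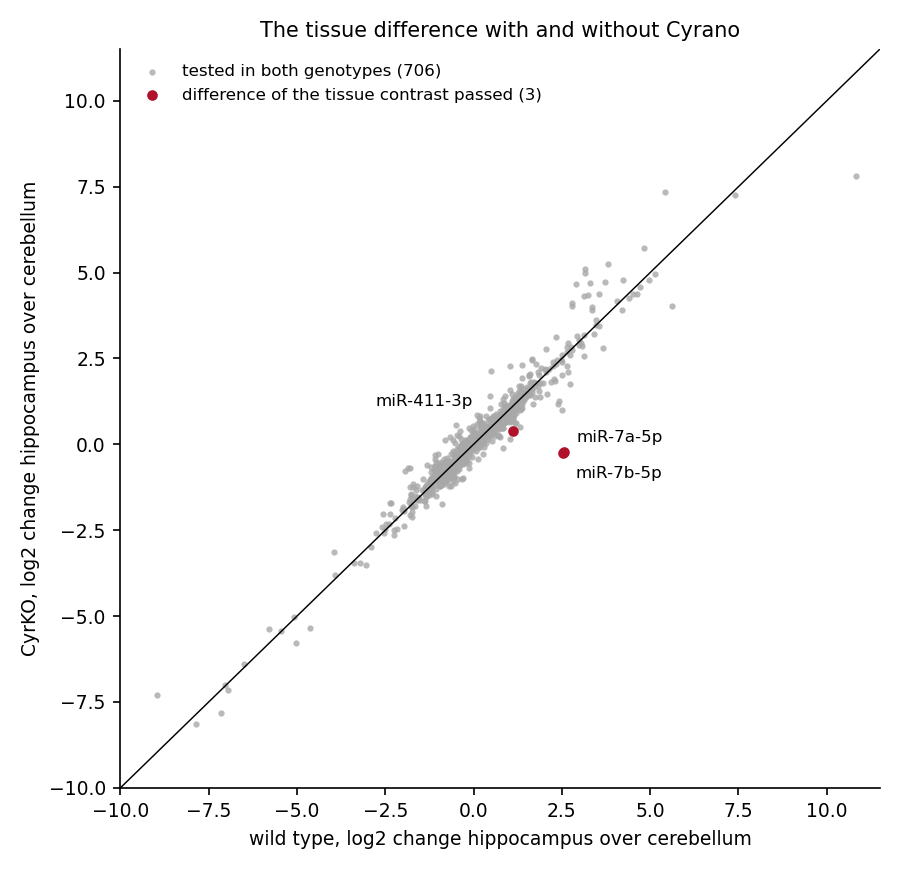
Log2 change, hippocampus over cerebellum, in WT (horizontal) and CyrKO (vertical) of the 706 miRNAs tested in both; the line marks equal changes. Most points lie along the line, and miR-7a-5p and miR-7b-5p, in red, lie at 2.56 and 2.54 in WT and near 0 in CyrKO; the WT values of 10.83 and −8.95 belong to miR-7080-5p and miR-216b-3p, which have no read in 1 tissue, and depend on the prior count.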

How the data were processed

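Per the labels' protocols, libraries were made from 5 µg of total RNA, with small RNAs of 18 to 32 nt selected. Cutadapt and DESeq2 1.10 appear in the submitters' processing notes. For the counts, the aligner, annotation and build are not given in the sources used. The authors deposited whole-number read counts per miRNA and library, which were the only values used. The remaining deposited columns were read only to learn what they hold: signal (counts divided by size factors, per the file headers), log2 fold changes with standard errors (a score in that table), and p-values of the authors' tests of mutants. No deposited table sets hippocampus against cerebellum, so raw counts of both were joined by miRNA name. The columns of WT cerebellum occur in 3 tables with identical values and were used once. Some miRNAs, such as let-7a-5p, were not analysed here, so shares are of the reads listed.

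Counts were fitted with edgeR 4.0.16 (R 4.3.3): filterByExpr (minimum count 10, minimum total 15), TMM scaling, robust quasi-likelihood F-test, Benjamini-Hochberg over all tested miRNAs, threshold 0.05. The SE is the absolute log2 change over the square root of F. Alternatives were DESeq2 1.42.0 as test and as scaling, library totals, other filters, a joint fit of 12 libraries, a replicate block and leaving out each library. The procedure was tested on simulated data. Since the labels do not name animals, p-values measure the spread between these libraries. Replicates differed by more than sampling noise. The replicate numbers were checked for pairing by the correlation of same-numbered deviations from the group means (0.30, −0.43 and 0.44 in WT). With 3 libraries per tissue these mixed signs neither show nor exclude pairs.

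The members and lists were chosen with earlier results of these data known. Named were both markers, the 12 largest called differences per direction without overlap averaging 100 CPM or more in either tissue, the 5 most abundant per tissue, up to 4 members per list by mean CPM, the 5 hairpins with the largest strand-ratio difference, and other strands of these hairpins. Named after their values were seen were other members of the lists, miR-7080, miR-133b-5p, miR-493, miR-1912, miR-411-3p and the miR-344 strands outside the lists. RefSeq held a sequence under the same name for 598 of the 709 tested miRNAs.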

Additional observations from a re-analysis of the deposited data

Results flagged for a closer look

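Results were singled out here when the tissue difference of a miRNA differed between WT and CyrKO by a test of the difference itself, an interaction term in a fit of 12 libraries. For miR-7a-5p the tissue difference was larger in WT by 2.82 on the log2 scale (SE 0.15, adjusted p = 3.17e-09). For miR-7b-5p it was larger by 2.81 (SE 0.16, adjusted p = 3.17e-09). For miR-411-3p it was larger by 0.77 (SE 0.16, adjusted p = 0.0387), with a tissue difference of 1.13 in WT and 0.38 in CyrKO. With a replicate block the difference of miR-411-3p was 0.76 and no longer passed (adjusted p = 0.0721), while both miR-7 guides still passed. These 3 are 0.402% of the 746 miRNAs tested. No cause was tested.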

How the results depend on the processing

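The scaling had the largest effect. With library totals in place of TMM all log2 changes moved up by a median of 0.56, the share of calls that were higher in hippocampus went from 52.7% to 75.6%, and 123 miRNAs were called lower instead of 239 (124 instead of 247 in CyrKO). At least 2-fold, 260 were higher and 60 lower. Changes of sign under library totals, among the 94 miRNAs named, were miR-126a-3p at 0.40, miR-128-3p at 0.51, miR-338-3p at 0.40, miR-381-3p at 0.069, miR-485-3p at 0.22 and miR-7b-3p at 0.33; the first 3 then passed as higher, and miR-381-3p and miR-485-3p lost their call. miR-9-5p, miR-344g-5p and miR-467a-5p lost their call. A filter at a mean of 10 CPM in 1 tissue left 105 at least 2-fold higher, since fewer miRNAs were tested. At a minimum of 100 CPM, 13 of 31 hairpins had strand ratios without overlap, against 59 of 109. The other alternatives kept the counts of calls within 1.5 times: DESeq2's test gave 253 higher and 226 lower, its size factors 260 and 246, no low-count filter 286 and 280, and 1 fit of 12 libraries 280 and 242.

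Leaving out 1 library at a time gave 246 to 272 higher and 207 to 226 lower calls. Among the named miRNAs the sign changed for 3 that had not passed, namely miR-128-3p (−0.14 to 0.020), miR-338-3p (−0.28 to 0.00039) and miR-7b-3p (−0.45 to 0.18). In WT the correlations between same-numbered libraries had mixed signs, which neither shows nor excludes pairs. Whether these libraries share a mouse is not stated. The fit with the replicate block called 265 higher and 233 lower in WT, 269 and 242 in CyrKO, and 2 instead of 3 differences between genotypes, losing miR-411-3p. Under the block miR-451a (−2.91, adjusted p = 0.0663) and miR-144-3p (−3.10, adjusted p = 0.0847) lost their call. Beyond what follows from fewer miRNAs or libraries, the cause was not tested. Depth limits miRNAs with few reads, such as the passenger strands of miR-216b, more than the abundant guides.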
